A study of Mus musculus with 6 samples.

Results

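The 10 genes described here encode proteins of the adult cardiac sarcomere, and 1 of them, Myh6, carries the mutation under study. They were taken by symbol from the 33696 genes of the count matrices, and all 10 were found once: Myh6, Myl2, Myl3, Mybpc3 and Ttn of the thick filament system, Actc1, Tpm1, Tnnt2 and Tnni3 of the thin filament, and Actn2 of the Z disc. Each was measured as unique molecular identifiers (UMIs) per 1000000 UMIs (CPM) in cardiomyocyte nuclei, and again in all other nuclei of the same library. Cardiomyocyte nuclei were those in which Ryr2 plus Tnnt2 made up at least 1% of UMIs. The other nuclei were meant as a measure of RNA outside its cell of origin, but an imperfect one. They also held cardiomyocyte-like nuclei below this gate, and smooth muscle-like nuclei, where Tpm1 was high. That gate uses Tnnt2, so tests within it cover the 9 other members.

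The samples were left ventricles of male mice aged 12 weeks, in 3 groups of 2 libraries. WT-CD mice were wild-type littermates on control diet. R403Q-CD mice were heterozygous for the mutation (genotype Myh6+/R404Q in the labels, called R403Q) and ate the same diet. R403Q-EMPA mice had that genotype and ate the diet with empagliflozin, an inhibitor of sodium-glucose cotransporter 2, at 0.15 mg per g of diet, or about 15 mg/kg. Diets began at 9 to 10 weeks of age. Nuclei came from 50 mg of frozen tissue, and nothing in the labels ties a library to 1 or several mice, so the p-values below measure the spread between these libraries only. A count matrix does not separate alleles, so every Myh6 value is the sum of both and does not check the genotype.

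In the sarcomere, myosin heads of the thick filament pull on actin of the thin filament. The adult mouse ventricle uses the α-myosin heavy chain, Myh6, with the light chains Myl2 and Myl3. Myosin binding protein C, Mybpc3, restrains the heads, and titin, Ttn, spans from Z disc to M band as a molecular spring. On the thin filament, tropomyosin, Tpm1, covers the binding sites of cardiac actin, Actc1, until calcium binds the troponin complex, of which Tnnt2 holds tropomyosin and Tnni3 inhibits contraction. α-Actinin, Actn2, anchors thin filaments at the Z disc.

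The altered codon is shown because it defines the 2 genotypes. Codon 404 of Myh6 lies at chr14:54960468-54960470 on the minus strand of GRCm38, in exon 13 of 39 of the longest transcript of GENCODE M21, within coding sequence. The count matrices were made on GRCm39, so these positions apply to GRCm38 only. The reference sequence of chr14:54960438-54960500 is given 5′ to 3′ on the coding strand, with the arginine codon that the mutation changes to glutamine in capitals.
Myh6 codon 404: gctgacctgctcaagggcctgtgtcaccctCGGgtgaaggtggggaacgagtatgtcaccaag

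Of 46005 nuclei kept, 5920 (12.9%) passed the gate. They numbered 907 and 640 for replicates 1 and 2 of WT-CD, 862 and 792 for R403Q-CD, and 1255 and 1464 for R403Q-EMPA, or 9.53% and 8.40%, 11.4% and 11.4%, and 15.8% and 22.8% of nuclei. Their median depth was 7030 to 13212 UMIs per library, against 2366 to 3885 in the other nuclei. The 12 cardiomyocyte markers that the gate does not use made up 3.67% to 4.31% of UMIs in gated nuclei and 0.222% to 0.425% in the others. Of the gated nuclei, 5903 lay in the 2 clusters with cardiomyocyte markers, and 1076 nuclei of those clusters were below the gate. Libraries shared 0.14% to 0.38% of their barcodes in pairs. Without the filter on mitochondrially encoded UMIs, gated nuclei numbered 1019 and 1018 for WT-CD, 2069 and 2180 for R403Q-CD, and 2656 and 2182 for R403Q-EMPA.

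Within WT-CD, both libraries stood apart, in different measures. In WT-CD replicate 1, 58.1% of gated nuclei lay between 1% and 1.5%, just above the gate, against 20.2% to 33.1% in the other libraries, and Ryr2, the calcium release channel, was at 11886 CPM against 15710 to 17792 CPM. In WT-CD replicate 2 the level of every member in the other nuclei was the lowest of the 6 libraries. The R403Q-EMPA libraries also differed in cluster makeup. A small cardiomyocyte-like cluster led by Ryr3, Nppa and Nppb held 33.7% and 13.1% of their gated nuclei, against 8.35% and 16.8% in R403Q-CD and 3.09% and 4.69% in WT-CD.

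In cardiomyocyte nuclei the 10 members made up 4.44% to 5.02% of all UMIs, and in the other nuclei 0.271% to 0.668%. Within cardiomyocyte nuclei, Ttn was counted most, followed by Myh6, then Tpm1 and Tnnt2, then Actn2. This is an order of UMI counts and not of level per length. There the levels of the remaining members, Myl2, Myl3, Mybpc3, Tnni3 and Actc1, ran from 374 to 1119 CPM.

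None of the 9 members tested in cardiomyocyte nuclei was called in any of the 3 comparisons (edgeR quasi-likelihood test, adjusted p under 0.05). For R403Q-CD against WT-CD, 0.178% of the 14036 genes tested were called, for R403Q-EMPA against R403Q-CD 0.349%, and for R403Q-EMPA against WT-CD 4.05%. At an unadjusted p under 0.05, 0, 0 and 2 members passed, the last being Tpm1 and Mybpc3, beside 6.88%, 12.9% and 19.8% of all genes. DESeq2 called 1 member, Tpm1, in R403Q-EMPA against WT-CD, beside 5.37% of genes, and none in the other 2 comparisons, beside 0.613% and 1.97%. Without the filter on mitochondrially encoded UMIs, edgeR called 1 member, Myl3, for R403Q-CD against WT-CD. The share of all genes called in that fit is not given here. The median log2 fold change over the 9 members was 0.08, -0.07 and 0.07 in that order of comparisons, beside medians over all genes of -0.01, 0.01 and 0.01. Without WT-CD replicate 2 the first of these was -0.0086.

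**Figure D1:**
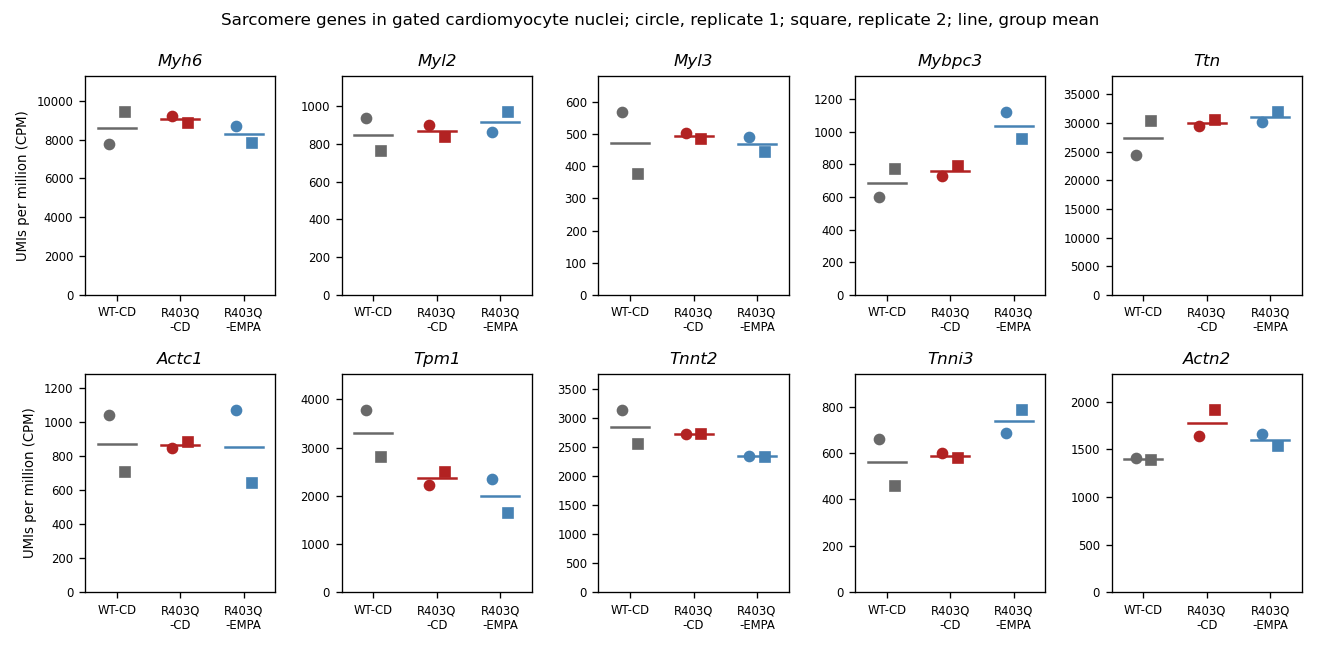
Level of each member in gated cardiomyocyte nuclei, in CPM, for each of 6 libraries. Circles are replicate 1, squares replicate 2 and lines group means; Tpm1 runs from 3780 and 2812 in WT-CD down to 2344 and 1655 in R403Q-EMPA, and Mybpc3 from 601 and 774 up to 1119 and 955.

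The mutated myosin itself did not separate mutant from wild-type libraries. Myh6 was at 7759 and 9400 CPM for WT-CD, 9236 and 8845 for R403Q-CD, and 8708 and 7833 for R403Q-EMPA. The WT-CD libraries held both the lowest and the highest value, so the groups overlapped except for R403Q-EMPA, which lay below R403Q-CD. The log2 fold change was 0.06 (SE 0.26) for R403Q-CD against WT-CD, with a 95% interval of -0.51 to 0.64, and edgeR gave an adjusted p of 0.99. For R403Q-EMPA against R403Q-CD it was -0.17 (SE 0.26, 95% interval -0.75 to 0.40, edgeR adjusted p = 0.82).

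The β-myosin heavy chain, Myh7, the slow isoform that rises in stressed rodent ventricle, was at 522 and 354 CPM for WT-CD, 411 and 392 for R403Q-CD, and 436 and 328 for R403Q-EMPA. Its share of Myh6 plus Myh7 UMIs was 6.30% and 3.63% for WT-CD, 4.26% and 4.24% for R403Q-CD, and 4.77% and 4.02% for R403Q-EMPA. The 95% Wilson intervals of the WT-CD libraries, 6.11% to 6.50% and 3.51% to 3.76%, cover counting error only and lay on either side of the other 4 libraries. The difference was -0.71 percentage points for R403Q-CD against WT-CD, 0.14 for R403Q-EMPA against R403Q-CD and -0.57 for R403Q-EMPA against WT-CD, with a two-sided exact permutation p of 1 in each. With 2 libraries against 2, no p below 0.333 can be reached. Myh6 and Myh7 are close paralogs, and reads that fit both could not be told apart in the matrices.

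The ventricular light chains varied within WT-CD more than between groups. Myl2, the regulatory light chain, was at 937 and 762 CPM for WT-CD, 903 and 836 for R403Q-CD, and 864 and 967 for R403Q-EMPA. Myl3, the essential light chain, was at 567 and 374 CPM, 502 and 486, and 492 and 444 in the same order. For both genes the R403Q-CD libraries lay between the WT-CD libraries. The log2 fold changes of the 2 genes lay between -0.12 and 0.08 in all 3 comparisons, with SE of 0.18. Without the mitochondrial filter the value of Myl3 for R403Q-CD against WT-CD was 0.95 in place of 0.08, and edgeR called it at an adjusted p of 0.025.

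Mybpc3 was at 601 and 774 CPM for WT-CD, 728 and 791 for R403Q-CD, and 1119 and 955 for R403Q-EMPA. Both R403Q-EMPA libraries lay above the other 4. The log2 fold change was 0.53 (SE 0.21, 95% interval 0.06 to 1.00) for R403Q-EMPA against WT-CD, with an edgeR adjusted p of 0.20, and 0.41 (SE 0.21) against R403Q-CD, with an adjusted p of 0.45. Without WT-CD replicate 2, the first value was 0.84 and edgeR called it, with an adjusted p of 0.022, while without WT-CD replicate 1 it was 0.27 and was not called. Of the 16 alternatives to the reported fit, this was the only one that called Mybpc3 in cardiomyocyte nuclei.

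Titin was the most counted member. Ttn was at 24491 and 30343 CPM for WT-CD, 29540 and 30605 for R403Q-CD, and 30131 and 31843 for R403Q-EMPA. WT-CD replicate 1, the library with low Ryr2, was the one low value, and the other 5 lay within 29540 to 31843. The log2 fold change was 0.12 (SE 0.31) for R403Q-CD and 0.12 (SE 0.31) for R403Q-EMPA, each against WT-CD, with edgeR adjusted p of 0.98 and 0.87.

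Among thin filament genes, cardiac actin did not separate the groups. Actc1 was at 1039 and 707 CPM for WT-CD, 850 and 882 for R403Q-CD, and 1071 and 640 for R403Q-EMPA, so both WT-CD and R403Q-EMPA spanned R403Q-CD. Its 3 log2 fold changes lay between -0.07 and 0.00, with SE of 0.24. Without the mitochondrial filter Actc1 was at 0.86 for R403Q-CD and 0.51 for R403Q-EMPA, each against WT-CD, and was not called.

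Tropomyosin had the lowest log2 fold change of the members in each comparison. Tpm1 was at 3780 and 2812 CPM for WT-CD, 2228 and 2505 for R403Q-CD, and 2344 and 1655 for R403Q-EMPA. Both WT-CD libraries lay above the other 4, while R403Q-CD and R403Q-EMPA overlapped. The log2 fold change was -0.47 (SE 0.23, 95% interval -0.97 to 0.03) for R403Q-CD against WT-CD, with an edgeR adjusted p of 0.78. Without the mitochondrial filter this value was 5.2e-05. For R403Q-EMPA against WT-CD it was -0.76 (SE 0.23, 95% interval -1.26 to -0.26), with an edgeR adjusted p of 0.097. That value passed the threshold with DESeq2 (adjusted p = 0.0020), without the filter on low counts (edgeR adjusted p = 0.0077) and without WT-CD replicate 2 (edgeR adjusted p = 0.041), and its adjusted p ran up to 0.42 over all alternatives. The value itself ran from -0.99 without R403Q-EMPA replicate 1 to -0.40 without the mitochondrial filter, and neither was called.

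For the troponins, Tnni3 was at 662 and 459 CPM for WT-CD, 599 and 577 for R403Q-CD, and 687 and 785 for R403Q-EMPA. Both R403Q-EMPA libraries lay above the other 4, with a log2 fold change of 0.36 (SE 0.19, edgeR adjusted p = 0.31) against WT-CD and 0.28 (SE 0.19, edgeR adjusted p = 0.55) against R403Q-CD. Without the mitochondrial filter the value against R403Q-CD was -0.26, and with a library left out the values ran from 0.21 to 0.54 and from 0.14 to 0.40. Tnnt2, which helps choose the nuclei, is given within the gate as a description, at 3143 and 2560 CPM for WT-CD, 2730 and 2730 for R403Q-CD, and 2348 and 2338 for R403Q-EMPA. In nuclei chosen by Ryr2 alone, at least 0.5% of UMIs, Tnnt2 was at 3060 and 2545 CPM, 2702 and 2671, and 2305 and 2305 in the same order. There the log2 fold change was -0.33 (SE 0.21, edgeR adjusted p = 0.41) for R403Q-EMPA against WT-CD and -0.27 (SE 0.21, edgeR adjusted p = 0.63) against R403Q-CD.

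At the Z disc, Actn2 was at 1412 and 1392 CPM for WT-CD, 1640 and 1912 for R403Q-CD, and 1662 and 1536 for R403Q-EMPA. Both WT-CD libraries lay below the other 4. The log2 fold change was 0.33 (SE 0.19, 95% interval -0.09 to 0.76, edgeR adjusted p = 0.83) for R403Q-CD and 0.14 (SE 0.19, edgeR adjusted p = 0.73) for R403Q-EMPA, each against WT-CD.

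Groups that do not overlap are common with 2 libraries each. For R403Q-CD against WT-CD, 1 of the 9 members lay wholly higher (Actn2), beside 18.2% of all genes tested, and 1 wholly lower (Tpm1), beside 15.3%. For R403Q-EMPA against R403Q-CD, 2 lay higher (Mybpc3 and Tnni3), beside 31.1%, and 1 lower (Myh6), beside 21.8%. Between R403Q-EMPA and WT-CD, 3 lay higher (Mybpc3, Tnni3 and Actn2), beside 26.7%, and 1 lower (Tpm1), beside 19.7%. The last 2 comparisons share the R403Q-EMPA libraries.

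**Figure D2:**
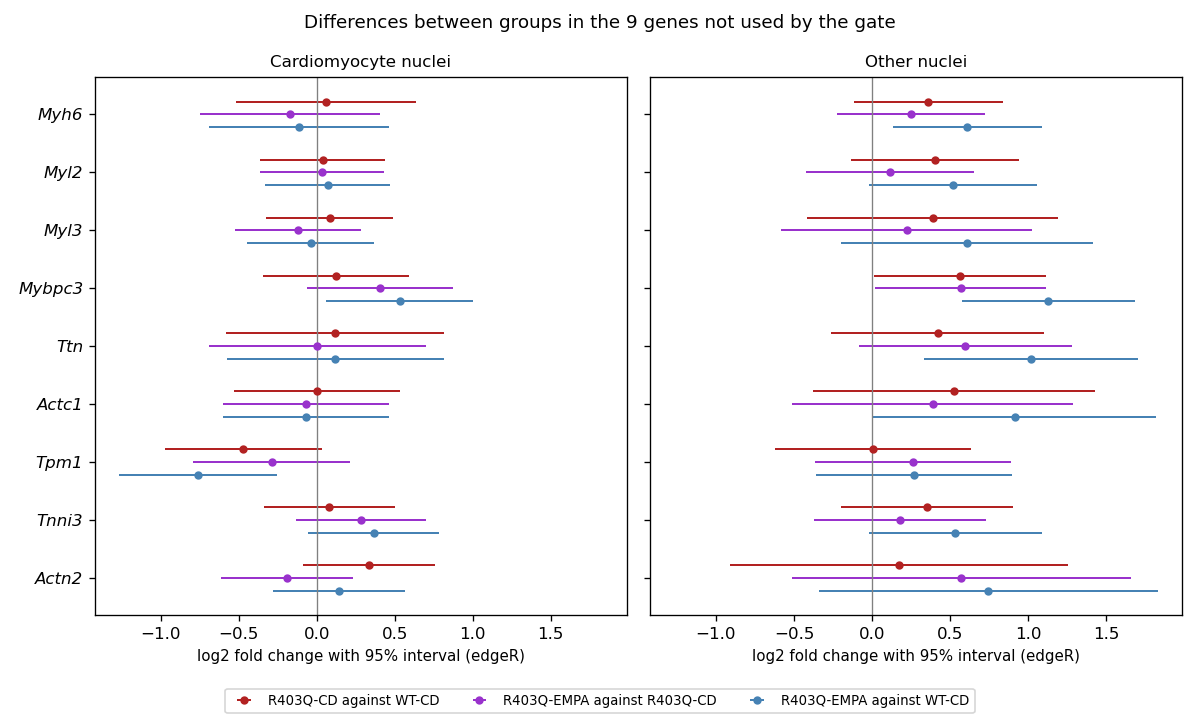
Log2 fold change with 95% interval from edgeR for the 9 members not used by the gate, in cardiomyocyte nuclei and in the other nuclei, for 3 comparisons. In cardiomyocyte nuclei only the intervals of Mybpc3 (0.06 to 1.00) and Tpm1 (-1.26 to -0.26), for R403Q-EMPA against WT-CD, leave out 0, whereas every point in the other nuclei lies above 0.

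The remaining sarcomere genes were taken from 4 lists with 51 genes, of which 49 were tested in cardiomyocyte nuclei. These lists were chosen with earlier results of these data known, so their shares of called genes are a description. For R403Q-CD against WT-CD none was called by edgeR, beside 0.178% of all genes. For R403Q-EMPA against R403Q-CD, 2 of 49 (4.08%) were higher, beside 0.349% of all genes called, and both belong to the thin filament list. Of these, Myl7 passed the filter on low counts only through R403Q-EMPA, which favoured its call. Myl7 also counts among the genes higher against WT-CD. Against WT-CD, 9 were higher in R403Q-EMPA and 3 lower (24.5%), beside 4.05% of all genes: 2 of 11 in the thin filament list were higher, 6 of 21 in the Z disc list were higher, 1 of 8 in the thick filament and M band list was lower, and 1 of 9 in the turnover list was higher and 2 lower. In the 3 comparisons 9, 15 and 22 of the 49 genes had an unadjusted p under 0.05, beside 965, 1817 and 2783 of the 14036 genes. DESeq2 called 2 (Ankrd23 and Myot), 5 and 16 of them, beside 0.613%, 1.97% and 5.37% of genes. For R403Q-EMPA against WT-CD, the median log2 fold change over the 49 genes was 0.08, beside 0.01 over all genes.

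The genes called in the thin filament list were Tpm2, β-tropomyosin, and Myl7, the atrial regulatory light chain, which sits on the thick filament. Both were scarce here. Myl7 had 2 and 0 UMIs for WT-CD, 2 and 1 for R403Q-CD, and 78 and 34 for R403Q-EMPA, or 6.29 and 3.14 CPM in the last. It was called at an edgeR adjusted p of 0.034 against R403Q-CD and 0.0094 against WT-CD. Myl7 passed the filter on low counts only through R403Q-EMPA, where it is high, so that filter favoured its call as higher there. Tpm2 was at 1.97 and 1.46 CPM for WT-CD, 1.05 and 0.66 for R403Q-CD, and 14.0 and 5.63 for R403Q-EMPA. Tpm2 rose against R403Q-CD by a log2 fold change of 3.46 (SE 0.50, edgeR adjusted p = 0.034) and against WT-CD by 2.47 (SE 0.47, edgeR adjusted p = 0.019). Within the large cardiomyocyte-like cluster alone, which leaves out the cluster led by Ryr3 and Nppa, the values were 2.21 (edgeR adjusted p = 0.19) and 0.66 (edgeR adjusted p = 0.57). Neither Myl7 nor Tpm2 was called without R403Q-EMPA replicate 1, where Tpm2 was at 2.69 (edgeR adjusted p = 0.20) against R403Q-CD and the adjusted p of Myl7 was 0.25, or without either R403Q-CD library in that comparison. The call against R403Q-CD was also lost for Myl7 without TMM (edgeR adjusted p = 0.056) and for Tpm2 without the mitochondrial filter (edgeR adjusted p = 0.059). DESeq2 gave Myl7 no adjusted p in that comparison, and within the large cluster alone Myl7 was not among the genes tested. Against WT-CD, Tpm2 was not called without WT-CD replicate 2 (edgeR adjusted p = 0.067) or at a 2% gate (edgeR adjusted p = 0.099).

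Myot, the Z disc protein myotilin, was at 108 and 101 CPM for WT-CD, 201 and 317 for R403Q-CD, and 281 and 334 for R403Q-EMPA. It rose in R403Q-EMPA against WT-CD by a log2 fold change of 1.52 (SE 0.22, edgeR adjusted p = 0.0061), and no alternative ended that call. For R403Q-CD against WT-CD it was 1.30 (SE 0.22) with an edgeR adjusted p of 0.067. Both mutant groups lay above WT-CD.

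The 3 lower genes act in turnover or in signalling to the light chain. Mylk3, the cardiac myosin light chain kinase, was at 477 and 528 CPM for WT-CD, 292 and 346 for R403Q-CD, and 255 and 275 for R403Q-EMPA, with a log2 fold change of -0.98 (SE 0.18, edgeR adjusted p = 0.018) for R403Q-EMPA against WT-CD. Fbxo32, a ubiquitin ligase of muscle, was at 376 and 348 CPM, 381 and 293, and 194 and 167, with -1.05 (SE 0.18, edgeR adjusted p = 0.013). Capn3, a muscle calpain, was at 8.74 and 9.73 CPM, 3.90 and 6.25, and 2.18 and 2.77, with -1.95 (SE 0.33, edgeR adjusted p = 0.012). Without R403Q-EMPA replicate 1 the adjusted p of these 3 genes was 0.16, 0.089 and 0.10, and without R403Q-EMPA replicate 2 that of Mylk3 was 0.075 and that of Fbxo32 0.090. The call of Mylk3 was also lost without R403Q-CD replicate 1, at an edgeR adjusted p of 0.050, and that of Capn3 at a 2% gate, at 0.091.

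Over the 6 libraries, the genes most like Myh6 in cardiomyocyte nuclei, by Pearson's r of log2 CPM among genes tested, were Gm28050 (0.997), Lmf1 (0.990) and Ell (0.989). They are the top of 14036 genes over 6 points and are a description. Among the members, r with Myh6 ran from -0.72 for Tnni3 to 0.70 for Ttn. Myh6 itself spanned 0.46 on the log2 scale over the 6 libraries, so these values rest on small differences.

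The members differed widely in how far cardiomyocyte nuclei exceeded the other nuclei of the same library. The median ratio of CPM over 6 libraries was 22.3 for Actn2, 15.7 for Ttn, 10.1 for Myh6 and 9.87 for Mybpc3. It was 6.86 for Tnnt2, which the gate uses, 3.67 for Tpm1, 3.33 for Myl2, 2.81 for Tnni3, 2.60 for Actc1 and 2.40 for Myl3. The ratio was highest in WT-CD replicate 2 for every member, for example 48.9 for Actn2 and 18.1 for Myh6. Without that library the highest ratio of Myh6 was 12.0 and of Actn2 29.2. Some nuclei below the gate clustered with cardiomyocytes. Against nuclei outside the cardiomyocyte-like clusters only, the median ratio was 61.5 for Actn2, 49.2 for Ttn, 20.3 for Mybpc3 and 16.0 for Myh6, and 2.61 to 4.11 for Tpm1, Myl2, Tnni3, Actc1 and Myl3.

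**Figure D3:**
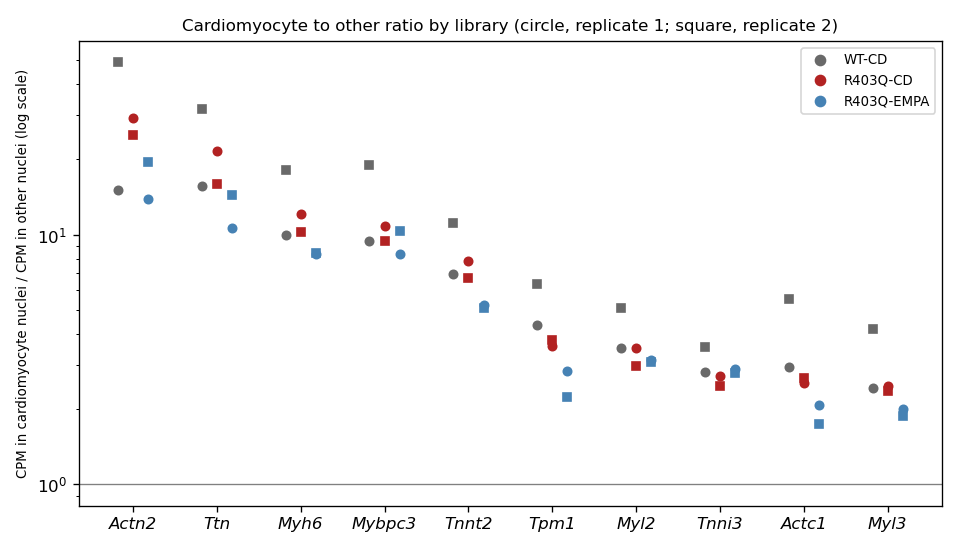
Ratio of CPM in cardiomyocyte nuclei to CPM in other nuclei, on a log scale, for 10 members and 6 libraries, ordered by the median ratio. Colours are groups, circles replicate 1 and squares replicate 2; Actn2, Ttn, Myh6 and Mybpc3 lie at 8.34 and above in every library, and Myl2, Tnni3, Actc1 and Myl3 at 5.53 and below.

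The length of the genes' RNA was set beside these ratios. The longest annotated coding transcript was 107 kb for Ttn, 6.11 kb for Myh6, 4.16 kb for Mybpc3 and 3.01 kb for Actn2, the 4 genes with the highest ratios, and 2.89 kb for Tpm1, 1.47 kb for Actc1, 1.2 kb for Tnnt2 and 0.89 to 0.94 kb for Myl2, Myl3 and Tnni3. Lengths did not fall into separate classes, since Actn2, with the highest ratio, and Tpm1 were close in length. Tnnt2, which the gate uses, had a higher ratio than the longer Tpm1 and Actc1. Spearman's rho of the ratio with this length was 0.75 over the 9 genes without Tnnt2, and 0.57 with the span of the gene. These lengths were compared after the ratios were seen, the genes share the same libraries, and rho is a description.

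At an equal depth of 1000 UMIs per nucleus, Myh6 was seen in 98.2% to 99.8% of cardiomyocyte nuclei and in 29.9% to 39.8% of other nuclei. Ttn was seen in 99.6% to 100% and 22.0% to 40.1%. Actn2 was seen in 71.0% to 77.5% and 2.00% to 5.44%, whereas Myl3 was seen in 31.7% to 42.6% and 8.41% to 20.8%. Thinning left out 21 cardiomyocyte and 413 other nuclei with fewer UMIs, and without it Myh6 was seen in 59.2% of the other nuclei of WT-CD replicate 1, in place of 32.7%.

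In the other nuclei every member was also measured. Myh6 was at 778 and 520 CPM for WT-CD, 767 and 865 for R403Q-CD, and 1038 and 925 for R403Q-EMPA. Both R403Q-EMPA libraries lay above the other 4. Ttn was at 1570 and 954 CPM, 1374 and 1928, and 2848 and 2211, and Mybpc3 at 63.9 and 40.8, 67.3 and 84.0, and 134 and 92.4 in the same order. Mybpc3 was ordered by group without overlap, lowest in WT-CD and highest in R403Q-EMPA.

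None of the 9 members was called in the other nuclei by edgeR, where 0%, 0.0765% and 0.284% of the 18300 genes tested were called in the 3 comparisons. At an unadjusted p under 0.05, 1, 1 and 4 members passed, beside 549, 1923 and 2853 of all genes, or 3%, 10.5% and 15.6%. DESeq2 called none for the first 2 comparisons, beside 0.0929% and 1.39% of genes, and for R403Q-EMPA against WT-CD, beside 3.05%, it called Ttn and Mybpc3, as did edgeR without the filter on low counts. For R403Q-EMPA against WT-CD the log2 fold change was 1.13 for Mybpc3 (SE 0.24, edgeR adjusted p = 0.12), 1.02 for Ttn (SE 0.29, edgeR adjusted p = 0.19), 0.91 for Actc1 (SE 0.39, edgeR adjusted p = 0.32) and 0.61 for Myh6 (SE 0.20, edgeR adjusted p = 0.23). The median over the 9 members was 0.39, 0.26 and 0.61 in the 3 comparisons, beside 0.00, 0.00 and 0.01 over all genes. Both medians against WT-CD moved with 1 library. Without WT-CD replicate 2 they were 0.04, with 3 of 9 members below 0, and 0.22, with 1 below 0, and without WT-CD replicate 1 they were 0.79 and 1.34.

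Of the 9 members, 8 lay wholly higher in R403Q-EMPA than in R403Q-CD in the other nuclei, with Myl2 the exception, beside 28.1% of all genes. Against WT-CD, 7 lay wholly higher, all but Tpm1 and Actn2, beside 20.5%. For R403Q-CD against WT-CD it was 1, Mybpc3, beside 13.4%. None lay wholly lower in these 3 comparisons, beside 23.3%, 21.8% and 14.4% of all genes. The members were measured in the same libraries, so they are not separate observations. Whether their RNA in the other nuclei came from a common source was not tested. The share of nuclei that passed the gate moved with this, at 15.8% and 22.8% in R403Q-EMPA against 8.40% to 11.4% in the other 4 libraries, and its part in the result was not tested. Without the mitochondrial filter that share was 21.1% and 20.7% in R403Q-EMPA, 20.4% and 21.4% in R403Q-CD, and 8.29% and 10.9% in WT-CD. R403Q-EMPA and R403Q-CD then overlapped in it. Mitochondrially encoded UMIs moved too. In the other nuclei they made up 2.47% and 3.18% of UMIs for R403Q-EMPA, 2.12% and 2.22% for R403Q-CD, and 2.78% and 2.44% for WT-CD. In cardiomyocyte nuclei they made up 1.19% and 1.30%, 0.832% and 0.855%, and 1.12% and 0.872% in that order, and their part in the result was not tested either.

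**Figure D4:**
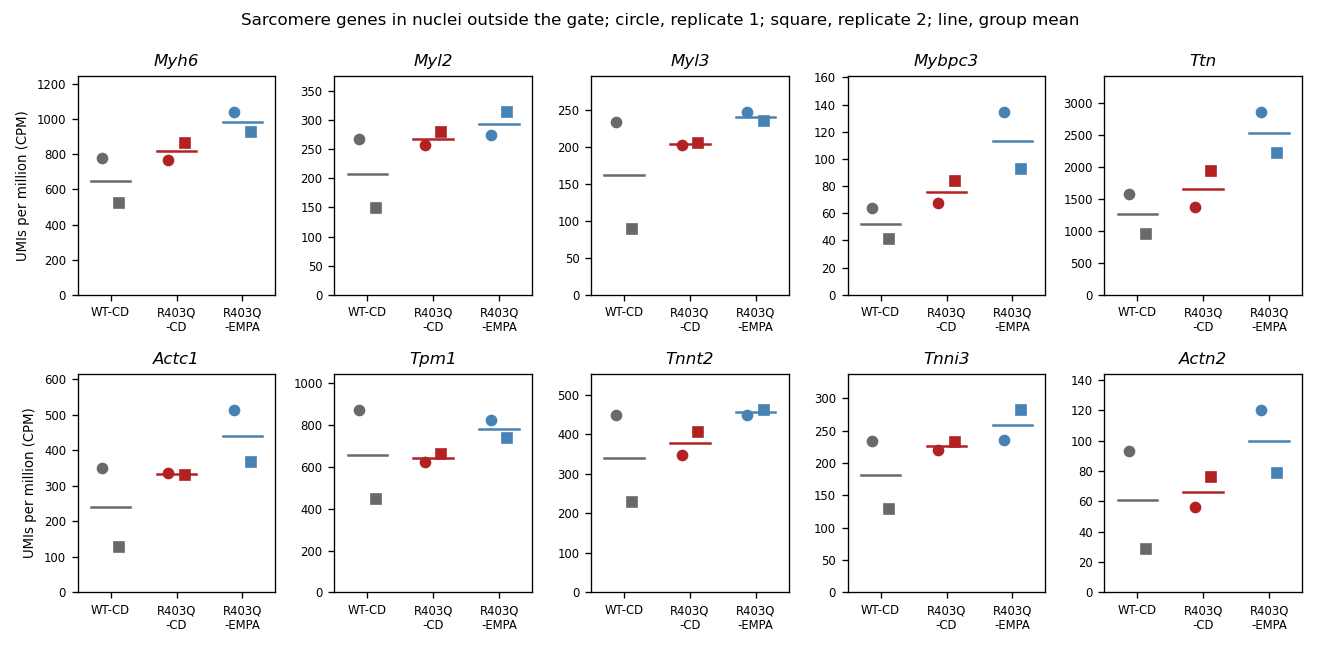
Level of each member in the nuclei outside the gate, in CPM, for each of 6 libraries. Circles are replicate 1, squares replicate 2 and lines group means; WT-CD replicate 2 is the lowest library in every panel, and Myh6 in R403Q-EMPA lies at 1038 and 925 against 520 to 865 elsewhere.

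Nuclei below the gate included 1.15% to 4.61% per library that clustered with cardiomyocytes, highest in R403Q-EMPA replicate 1. With all cardiomyocyte-like nuclei set aside, Ttn outside them was at 303 to 754 CPM and kept 19.3% to 48.0% of its level in the other nuclei, and Myh6 at 384 to 596 CPM kept 51.8% to 74.7%. Myl3 kept 89.7% to 94.9%. On that basis 3 members (Myl3, Tpm1 and Actc1) lay wholly higher in R403Q-EMPA than in R403Q-CD, beside 27.7% of all genes, in place of 8, and 6 lay wholly higher than in WT-CD, beside 20.9%. For R403Q-CD against WT-CD, 5 lay wholly higher, beside 14.6%. None lay wholly lower, beside 23.6%, 22% and 15%. Myh6 then had a log2 fold change of 0.54 (SE 0.14, 95% interval 0.21 to 0.87, edgeR adjusted p = 1.00) for R403Q-CD against WT-CD. It was 0.00 (SE 0.14, 95% interval -0.32 to 0.33, edgeR adjusted p = 1.00) for R403Q-EMPA against R403Q-CD, and 0.54 (SE 0.14, 95% interval 0.22 to 0.87, edgeR adjusted p = 0.14) against WT-CD. Mybpc3 was at 0.86 (SE 0.12, edgeR adjusted p = 0.71), 0.00 (SE 0.12, edgeR adjusted p = 0.99) and 0.85 (SE 0.12, edgeR adjusted p = 0.044) in the same order, and the last was called. It was the only call among the 9 members on that basis, beside 0%, 0.0779% and 0.412% of 17970 genes.

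The members were present at similar proportions in unlike classes of nuclei. Relative to Myh6 in the same nuclei, Actc1 was at 0.52 to 0.64 in the 9 classes without cardiomyocyte markers (medians over libraries, from endothelial-like and fibroblast-like to lymphocyte-like) and at 0.10 in cardiomyocyte-like nuclei. Tnni3 was at 0.36 to 0.40 and 0.07, Myl3 at 0.32 to 0.38 and 0.06, and Myl2 at 0.41 to 0.52 and 0.10. For Ttn and Actn2 the direction was the opposite, with Ttn at 1.02 to 1.45 against 3.37 and Actn2 at 0.05 to 0.07 against 0.18. Mybpc3 was close in both, at 0.06 to 0.10 and 0.09.

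Tpm1 was the exception, and in 1 class. In smooth muscle-like nuclei it was at 2067 to 3157 CPM with a median of 2478, against medians of 520 to 780 CPM in the 8 classes left and 2436 CPM in cardiomyocyte-like nuclei. Relative to Myh6 it was at 4.64 there, against 0.93 to 1.31 in those 8 classes. Myh6 in smooth muscle-like nuclei, at a median of 515 CPM, lay within the 448 to 643 CPM of the other 8 medians. Tropomyosin 1 is also made by smooth muscle. Levels in small classes rest on few UMIs, such as Myh6 in lymphocyte-like nuclei of R403Q-EMPA replicate 2, at 1832 CPM from 163 UMIs in 47 nuclei.

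**Figure D5:**
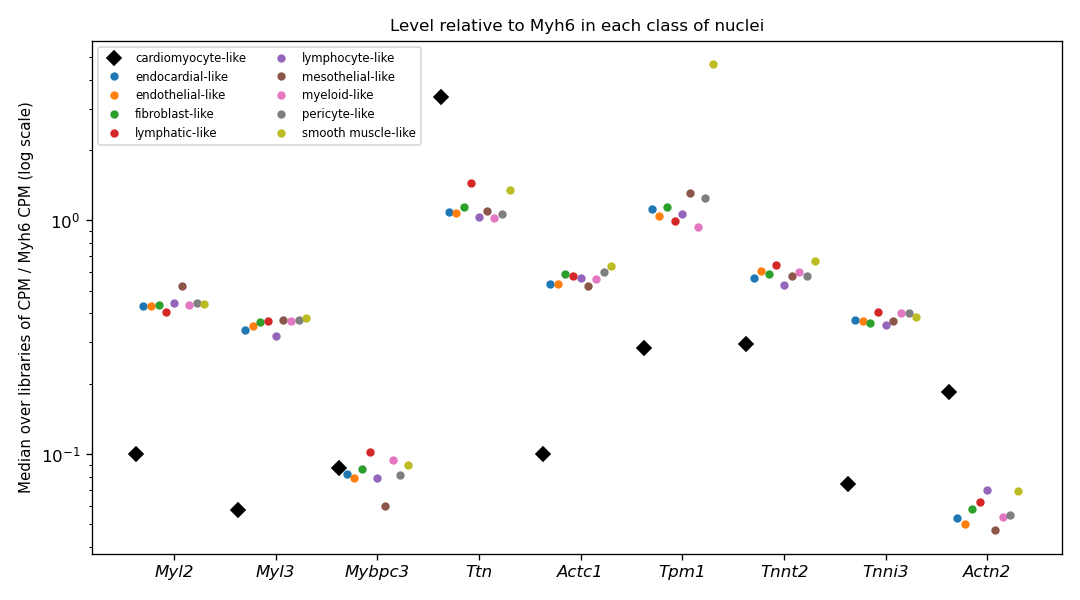
CPM of each member divided by that of Myh6 in the same class of nuclei, as the median over 6 libraries, on a log scale. Diamonds are cardiomyocyte-like nuclei and circles 9 other classes; the circles lie together for each gene, except Tpm1 in smooth muscle-like nuclei at 4.64.

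Whether the change between groups differed between cardiomyocyte nuclei and the other nuclei was tested as an interaction. The other nuclei include cardiomyocyte-like nuclei below the gate, so this compares RNA levels in pools of nuclei, not responses of cell types. None of the 9 members was called by edgeR in any of the 3 comparisons, beside 0%, 0.0625% and 0.159% of 17610 genes. At an unadjusted p under 0.05, 2, 1 and 6 members passed, beside 5.66%, 8.71% and 12.6% of all genes. DESeq2 called 0, 0 and 2, the last being Actc1 and Tpm1, beside 0.256%, 0.527% and 2.41% of the genes it gave an adjusted p. Between R403Q-EMPA and WT-CD all 9 differences were below 0, that is, the log2 fold change was lower in cardiomyocyte nuclei, with a median of -0.76 beside 0.00 over all genes. Without WT-CD replicate 2 the median was -0.24 and 2 of the 9, Actn2 (0.12) and Tnni3 (0.010), were above 0, and without WT-CD replicate 1 it was -1.18. The nearest to the threshold were Tpm1, at -1.10 (SE 0.22, 95% interval -1.61 to -0.59, edgeR adjusted p = 0.096), and Actc1, at -1.14 (SE 0.28, edgeR adjusted p = 0.15). Tpm1 was called for this difference in 6 of the 16 alternatives, and its value lay between -1.39 and -0.76 in all of them.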

How the data were processed

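The members and gene lists were chosen with earlier results of these data known. Per the labels, nuclei were prepared from frozen left ventricle and sequenced as droplet libraries, and the authors deposited 1 filtered matrix of raw UMI counts per library (Cell Ranger 8.0.1 and build GRCm39 in the submitters' processing notes; whether intronic reads were counted is not given in the sources used here). The protocol in the labels gives a feeding period longer than the stated ages leave room for, and the duration is left out here. Of 69249 barcodes, those with at least 500 UMIs, 300 genes and at most 5% mitochondrially encoded UMIs were kept, and doublets predicted by scrublet in scanpy 1.11.5 were removed. Total depth was 31787308 to 45397128 UMIs per library. Classes were Leiden clusters named by fixed markers, and so are called "-like". Counts were summed per library for each kind of nuclei, and genes left by filterByExpr were tested with TMM scaling in edgeR 4.0.16 (R 4.3.3) over all 6 libraries with Benjamini-Hochberg adjustment across all genes, called under 0.05, and tested on simulated data. Groups came from the labels, and replicates are numbered by deposit order. Named genes were the 10 members, called genes of 4 sarcomere lists (of more than 6, the 3 highest and 3 lowest), Myh7 and the 3 genes most like Myh6. Alternatives were DESeq2 1.42.0, no TMM, no filter on low counts, other gates, clusters, doublets, no mitochondrial filter and leaving out each library. Lengths and the codon were read from GENCODE M21 (GRCm38).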

Additional observations from a re-analysis of the deposited data

Results flagged for a closer look

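Myh6 lay lower in cardiomyocyte nuclei and higher in the other nuclei of both R403Q-EMPA libraries than of both R403Q-CD libraries, so that the 2 kinds of nuclei moved in opposite directions. In cardiomyocyte nuclei it was at 8708 and 7833 CPM against 9236 and 8845, and in the other nuclei at 1038 and 925 against 767 and 865. The difference of the log2 fold changes was -0.43 (SE 0.28, 95% interval -1.06 to 0.20), and edgeR did not call it, at an adjusted p of 0.69. Of the 9 members that the gate does not use, Myh6 was the one whose groups did not overlap in either kind of nuclei and lay in opposite order. Of all genes tested, 21.8% lay wholly lower in cardiomyocyte nuclei and 28.1% wholly higher in the other nuclei. The share of genes with both was not computed, so how common this pattern is cannot be said. Tnnt2, which the gate uses, showed that order too, at 2348 and 2338 CPM against 2730 and 2730 in cardiomyocyte nuclei and 449.5 and 462 against 349 and 406 in the other nuclei. The fitted values of Tpm1, Actn2, Actc1 and Myl3 also had opposite signs, and the difference was -0.76 for Actn2, -0.62 for Ttn, -0.57 for Tpm1 and -0.49 for Actc1, none of them called by edgeR. The share of cardiomyocyte nuclei among all nuclei moved with it, at 15.8% and 22.8% against 11.4% and 11.4%. Without the mitochondrial filter that share was 21.1% and 20.7% against 20.4% and 21.4%, so these groups overlapped. Outside the cardiomyocyte-like clusters the log2 fold change of Myh6 was 0.00 in place of 0.25.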

How the results depend on the processing

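No paired analysis was possible because the replicate numbers follow deposit order and tie no libraries across groups. Of 108 recomputed counts of called members and Myh7 shares, 92 kept their direction and side of the threshold, as did 66 of 72 with a library left out. Of 890 recomputed fold changes, 822 did, 31 passed the threshold anew, 6 lost it and 31 changed sign. With a library left out, 510 of 570 did, 5 passed anew, 15 lost the call and 40 changed sign. The cause was not tested in any case.

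For R403Q-EMPA against WT-CD, the count of called members was 1 in cardiomyocyte nuclei with DESeq2 and with no filter (Tpm1 in both). In the other nuclei it was 2 with DESeq2, with no filter and without the mitochondrial filter, and 1 at the 2% gate, with the Ryr2 gate and by clusters. For the difference it was 2 with DESeq2, 5 with no filter, 3 at the 0.5% gate, 6 at the 2% gate, 2 with the Ryr2 gate and 1 by clusters. At the 2% gate WT-CD replicate 1 kept 95 gated nuclei, against 242 to 644 in the other libraries. Nuclei between 1% and 2% then counted among the other nuclei. With no filter, edgeR called 1390 of 24148 genes in cardiomyocyte nuclei and 420 of 27618 in the other nuclei. For the difference it called 728 of 28106. Shares of all genes are not given here for the other gates, the fits without the mitochondrial filter or those with a library left out. Leaving out 1 library gave 0 to 2 calls in cardiomyocyte nuclei (2 without WT-CD replicate 2), 0 to 1 in the other nuclei and 0 to 2 for the difference. Without the mitochondrial filter, 1 member (Myl3) was called in cardiomyocyte nuclei for R403Q-CD against WT-CD, and the Myh7 share for R403Q-EMPA against R403Q-CD was -0.26 points. With a library left out, that share ran from -0.24 to 0.52, for R403Q-CD against WT-CD from -2.05 to 0.62, and for R403Q-EMPA against WT-CD from -1.91 to 0.76.

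Log2 fold changes that changed sign were near 0 in most cases. In cardiomyocyte nuclei for R403Q-CD against WT-CD they were Myl2 at the 2% gate (-0.036), Tpm1 (5.2e-05) and Myh7 (0.21) without the mitochondrial filter, and Actc1 with DESeq2 (-0.0024), without TMM (-0.011), with the Ryr2 gate (-0.0037) and in the large cluster (-0.029). For R403Q-EMPA against R403Q-CD they were Myl2 by clusters (-0.0020) and without the mitochondrial filter (-0.29), Tnni3 without that filter (-0.26), and Ttn with DESeq2 (-0.0036), the 0.5% gate (-0.010), the Ryr2 gate (-0.0027), clusters (-0.021), doublets kept (-0.0062), no mitochondrial filter (-0.039) and the large cluster (-0.0029). For R403Q-EMPA against WT-CD they were Myl3 (0.43) and Actc1 (0.51) without the mitochondrial filter and Actc1 at the 2% gate (0.049). In the other nuclei they were Tpm1 for R403Q-CD against WT-CD without TMM (-0.031), at the 2% gate (-0.16) and with doublets kept (-0.0058), and Mybpc3 for R403Q-EMPA against R403Q-CD by clusters (-0.0042). For the difference they were Actn2 for R403Q-CD against WT-CD without TMM (0.0059) and with doublets kept (0.063), and, for R403Q-EMPA against R403Q-CD, Mybpc3 at the 0.5% gate (0.25), with the Ryr2 gate (0.16) and by clusters (0.39), and Tnni3 at the 2% gate (-0.040) and without the mitochondrial filter (-0.40).

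With a library left out, these ranges crossed 0. In cardiomyocyte nuclei for R403Q-CD against WT-CD they were -0.15 to 0.32 for Myh6, -0.038 to 0.12 for Myl2, -0.10 to 0.31 for Myl3, -0.12 to 0.43 for Mybpc3, -0.072 to 0.27 for Tnni3, -0.10 to 0.39 for Ttn, -0.16 to 0.20 for Actc1 and -0.28 to 0.090 for Myh7. For R403Q-EMPA against R403Q-CD they were -0.092 to 0.14 for Myl2, -0.080 to 0.071 for Ttn, -0.45 to 0.22 for Actc1 and -0.31 to 0.035 for Myh7. For R403Q-EMPA against WT-CD they were -0.33 to 0.15 for Myh6, -0.057 to 0.18 for Myl2, -0.22 to 0.18 for Myl3, -0.11 to 0.40 for Ttn and -0.44 to 0.22 for Actc1. In the other nuclei for R403Q-CD against WT-CD they were -0.10 to 1.14 for Myl3, -0.35 to 0.48 for Tpm1 and -0.41 to 1.17 for Actn2, and for R403Q-EMPA against WT-CD -0.088 to 0.74 for Tpm1. For the difference they were, for R403Q-CD against WT-CD, -0.74 to 0.17 for Myh6, -0.83 to 0.0076 for Myl3, -0.95 to 0.12 for Mybpc3, -0.82 to 0.26 for Ttn and -0.89 to 0.86 for Actn2. For R403Q-EMPA against R403Q-CD they were -0.23 to 0.044 for Myl2 and -0.31 to 0.0016 for Mybpc3, and for R403Q-EMPA against WT-CD -0.39 to 0.010 for Tnni3 and -1.65 to 0.12 for Actn2.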
